A study of Homo sapiens with 8 samples.

Results

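Among 19580 transcripts in a table of ribosome footprints, 6 genes were read almost only in cells without RNF14: TCEAL9 (ENSG00000185222), PI15 (ENSG00000137558), SHISA2 (ENSG00000180730), APOBEC3C (ENSG00000244509), EPDR1 (ENSG00000086289) and PLAAT5 (ENSG00000168004). They were selected on footprint reads: at most 3 reads over the 4 wild-type libraries and 40 or more over the 4 knockout libraries. Every transcript of the table that meets these limits is among the 6. The difference between the genotypes is therefore how the genes were chosen, and its size is given below as a description that supports nothing.

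All libraries came from HAP1, human leukaemia-derived cells that carry a single copy of nearly every chromosome. Cells were wild type or RNF14 knockout. All had taken up the photoreactive uridine analogue 4SU (5 uM, 18 h) and had then received 6 kJ/m2 of UVA, so wild type and knockout share this treatment and no library is untreated. Cells were lysed at 0 or 30 min of recovery, with 2 biological replicates for each of the 4 groups. The labels name 1 knockout and do not say whether it is a single clone, so the loss of RNF14 and any other difference between the lines cannot be told apart here. The identity of the cells and the loss of RNF14 footprints were not checked, because no table used here pairs other gene IDs with symbols.

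The RNF14 protein is a ubiquitin ligase of the RING-between-RING class, known for marking factors trapped on stalled ribosomes, and stretches of RNA crosslinked to protein are one cause of stalling. A ribosome footprint is the piece of mRNA that a ribosome shields from nuclease. Its count follows both how much of an mRNA is present and how heavily it is translated, and without RNA counts these cannot be told apart. The 6 genes have no common pathway known from textbooks. TCEAL9 encodes a small protein of the BEX and TCEAL family, PI15 a secreted protein of the CAP superfamily, and SHISA2 an endoplasmic reticulum protein that holds back Frizzled and FGF receptors. APOBEC3C encodes a cytidine deaminase that restricts retroelements, EPDR1 a glycoprotein of the lysosome, and PLAAT5 an acyltransferase that acts on phospholipids.

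The values are RPKM, reads per kilobase of transcript and per 1000000 reads of the library, and they convert back to whole reads. Libraries held between 323946 and 1241975 reads, and every library at 30 min was shallower than every library at 0 min. Wild type had more reads in all than the knockout, 3096580 against 2803831. Knockout at 30 min replicate 1 was the shallowest library and stood apart, at 42.2 on the second principal component against -25.1 for its replicate. The selection and the fitted recovery changes are also given without it. Ratios of read shares and their intervals are given with it included. Without it 5 of the 6 genes still reached the selection's limits, and PLAAT5 did not. Whether PCR duplicates were removed is not given in the sources used here, so the intervals below cover counting error only. Between genotypes they also take no account of the selection, which favours high ratios. That these intervals leave out 1 therefore supports nothing.

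TCEAL9 had the highest footprint level of the 6 in the knockout. In wild type it was at 1.09 and 0 RPKM at 0 min and at 0 and 3.77 RPKM at 30 min, replicate 1 before replicate 2. In the knockout it was at 136 and 132 RPKM at 0 min and at 219 and 176 RPKM at 30 min. All 4 knockout libraries lay far above all 4 wild-type libraries, and the replicates at 0 min were close to each other. The wild-type values rest on 3 reads and the knockout values on 436, so the share of all reads was 161 times higher in the knockout, with an exact 95% binomial interval from 54.6 to 781. Of the 3 wild-type reads, 2 came from wild type at 30 min replicate 2, as did 2 of the 3 of PI15, SHISA2 and PLAAT5. Leaving out that library takes away most of these reads and so raises the ratio. It was then 401 for TCEAL9 (interval 71.6 to 15883), 95.7 for PI15, 61.7 for SHISA2 and 36.8 for PLAAT5, each on 1 wild-type read. The lowest ratios with 1 library left out were 110 for TCEAL9 (without wild type at 0 min replicate 2), 27.3 for PI15, 17.6 for SHISA2 and 10.5 for PLAAT5. The last 3 were without wild type at 0 min replicate 1. In the knockout, TCEAL9 ranked above 96.3% of all transcripts at 0 min and above 98.0% at 30 min by mean RPKM.

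PI15, the secreted CAP protein, described as a weak trypsin inhibitor, followed at a lower level. It was at 0 and 0.728 RPKM in wild type at 0 min and at 0 and 2.74 RPKM at 30 min. In the knockout it was at 32.5 and 28.2 RPKM at 0 min and at 17.5 and 12.3 RPKM at 30 min. The genotypes did not overlap. Both knockout libraries at 30 min, with 8 reads each, lay below both at 0 min, a difference that did not pass the test given below. Its 3 wild-type and 104 knockout reads gave 38.3 as the ratio of read shares, with an interval from 12.7 to 189.

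SHISA2 and APOBEC3C had the lowest RPKM of the 6 in the knockout at 0 min. SHISA2, which keeps receptors from reaching the cell surface, was at 0 and 0.268 RPKM in wild type at 0 min and at 0 and 1.01 RPKM at 30 min. Its knockout values were 6.91 and 4.34 RPKM at 0 min and 8.03 and 6.23 RPKM at 30 min. That is 3 reads against 67 on a transcript of 3845 nt, the longest of the 6, for a ratio of 24.7 (interval 8.09 to 123). The genotypes did not overlap, and the knockout values at the 2 times did.

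APOBEC3C, the deaminase, was at 0.425 RPKM in wild type at 0 min replicate 1, on 1 read, and is listed at 0 in the other 3 wild-type libraries. In the knockout it was at 7.61 and 6.80 RPKM at 0 min and at 7.01 and 12.4 RPKM at 30 min. The knockout libraries lay within a narrow range, apart from the higher value of replicate 2 at 30 min. With 1 read against 60, the ratio was 66.3, and its interval, from 11.4 to 2660, shows how little 1 read fixes it. APOBEC3C has close relatives in the same gene cluster, and how reads that match several of them were counted is not given in the sources used here, so its value is uncertain to that extent.

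EPDR1, which encodes a lysosomal protein, is the one gene of the 6 listed at 0 in all 4 wild-type libraries. In the knockout it was at 27.8 and 22.1 RPKM at 0 min, and at 30 min it is listed at 0 in replicate 1 and was at 41.0 RPKM in replicate 2. The genotypes therefore overlap at 0 in 1 knockout library. With 45 knockout reads against a floor of 3 reads over the wild-type libraries, its share was at least 16.6-fold higher in the knockout. The exact interval, which also holds the counting error of the 45 reads, has its lower limit at 12.9. Over the other 3 knockout libraries EPDR1 took 18.1 reads per 1000000, a share that would give 5.88 reads in replicate 1 at 30 min, where there was none. A count of 0 allows up to 3 reads there, or 14.5 RPKM on this transcript of 638 nt, the shortest of the 6, and that limit is below the value of each of the other 3 knockout libraries.

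PLAAT5, the acyltransferase, lay at the limit of the selection with 40 knockout reads and 3 wild-type reads. It was at 0 and 0.883 RPKM in wild type at 0 min and at 0 and 3.32 RPKM at 30 min. In the knockout it was at 14.5 and 11.0 RPKM at 0 min and at 5.29 and 13.1 RPKM at 30 min. The genotypes did not overlap in RPKM. At 30 min, however, the lowest knockout value and the highest wild-type value each rest on 2 reads. The ratio of read shares was 14.7 with an interval from 4.69 to 74.4, and at 30 min alone 7.09 with an interval from 1.47 to 67.5.

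**Figure D1:**
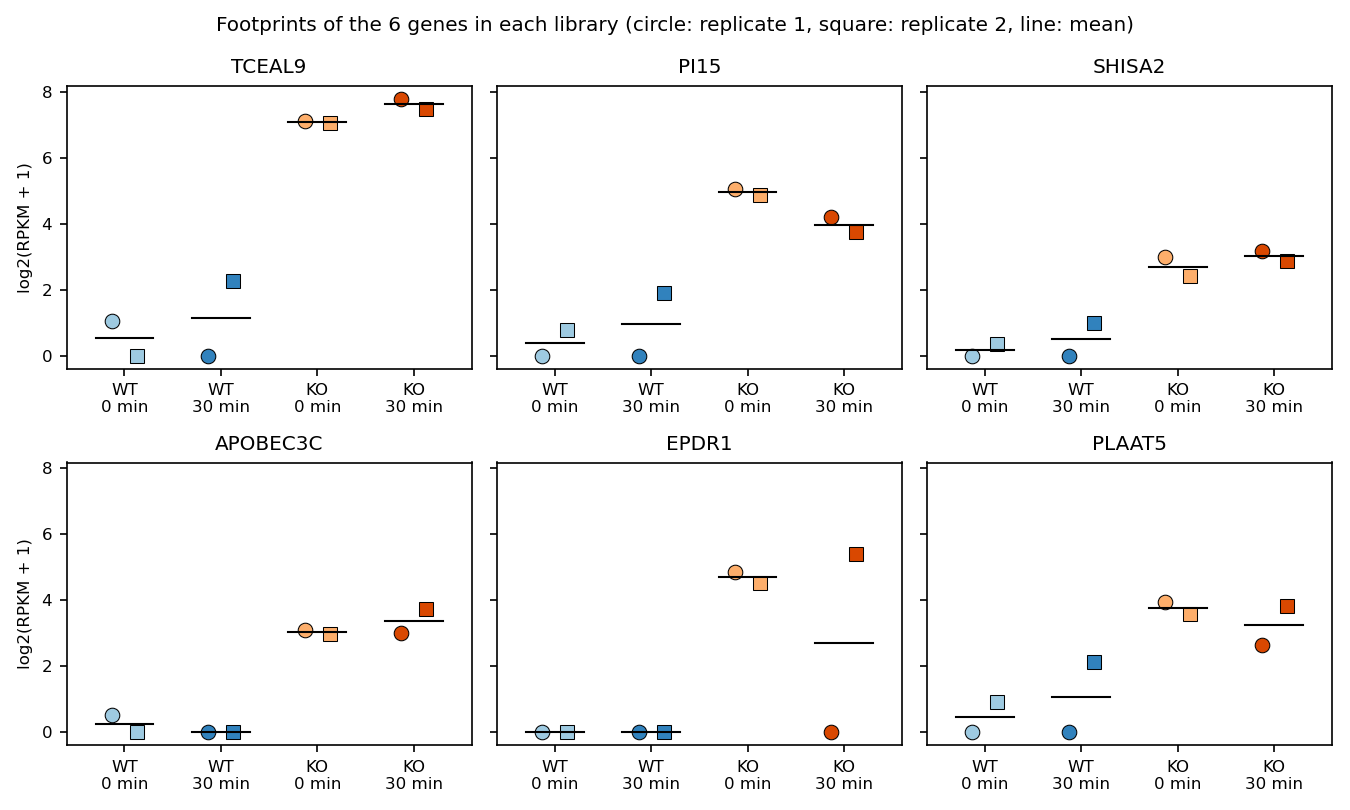
Footprint level of each of the 6 genes as log2(RPKM + 1) in the 8 libraries, wild type (WT) in blue and RNF14 knockout (KO) in orange, with circles for replicate 1, squares for replicate 2 and lines for the mean of 2. All 4 knockout points lie above all 4 wild-type points for every gene but EPDR1, whose knockout replicate 1 at 30 min lies at 0; 2.15% of the 11920 transcripts with a mean RPKM of at least 1 show such a separation, which the selection nearly fixes for these genes.

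The order given here is by RPKM, which divides by the length of the whole transcript. The region counted is not stated, so the order holds for RPKM only. By knockout reads at 0 min, SHISA2 (46) and APOBEC3C (39) stood above EPDR1 (33) and PLAAT5 (31). At 0 min in the knockout the means were 134 ± 2.73 RPKM for TCEAL9, 30.3 ± 3.04 for PI15, 25.0 ± 3.98 for EPDR1 and 12.8 ± 2.47 for PLAAT5. APOBEC3C had 7.21 ± 0.575 and SHISA2 5.63 ± 1.82 RPKM (SD, n = 2 each). The replicates of APOBEC3C and SHISA2 overlapped, and those of the other neighbours in this order did not, though PI15 and EPDR1 were close. At 30 min TCEAL9 stayed first at 198 ± 30.7 RPKM, followed by EPDR1 at 20.5 ± 29.0, PI15 at 14.9 ± 3.64, APOBEC3C at 9.68 ± 3.78, PLAAT5 at 9.18 ± 5.50 and SHISA2 at 7.13 ± 1.27 (SD, n = 2 each). At that time each gene after TCEAL9 overlapped with the next in order. TCEAL9 alone supplied 58.0% of the 752 knockout reads of the 6 genes.

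Summed over the 6 genes, the knockout libraries had similar shares, and in wild type only the intervals of the 2 libraries at 30 min lay apart. TCEAL9 leads this sum, with 58.0% of its knockout reads. Single genes were less even: EPDR1 had no read in knockout at 30 min replicate 1. The knockout libraries held 267 and 238 reads per 1000000 (RPM) at 0 min and 306 and 296 at 30 min, and their exact 95% intervals overlapped. Wild type held 2.25 (interval 0.272 to 8.11) and 3.09 (interval 0.637 to 9.02) RPM at 0 min and 0 and 15.5 at 30 min. Of the 13 wild-type reads, 8 came from replicate 2 at 30 min, which is 61.5% of them. That library gave exactly 2 reads to each of TCEAL9, PI15, SHISA2 and PLAAT5 and none to APOBEC3C and EPDR1. The deeper replicate 1 at 30 min had 0 of 717828 reads on all 6 genes, with an exact interval up to 5.14 RPM. The share in replicate 2 at 30 min, with an interval from 6.69 to 30.5 RPM, was 5.78% of the pooled knockout share, against 0.837% and 1.15% in the libraries at 0 min. The selection caps the wild-type reads of each gene at 3. Nothing is therefore read from the gap between the 2 wild-type intervals at 30 min. What sets these wild-type reads was not tested.

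**Figure D2:**
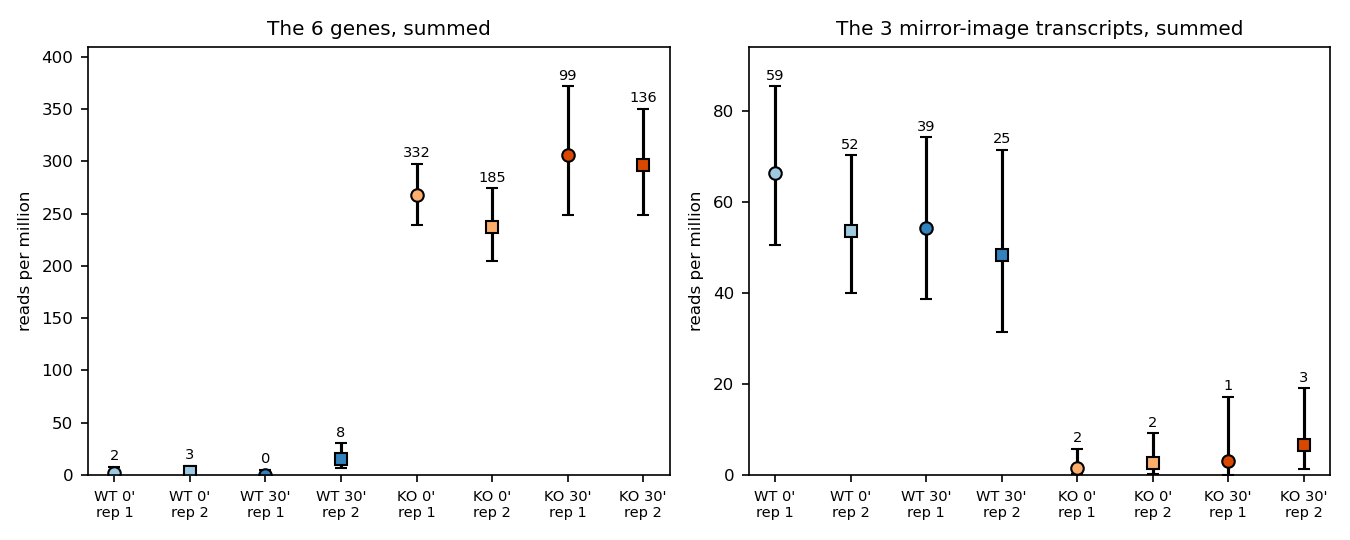
RPM summed over the 6 genes (left) and over the 3 transcripts that show the reverse pattern (right), in each library of wild type (WT) and RNF14 knockout (KO), at 0 or 30 min as written on the axis. Bars are exact 95% binomial intervals and the number above each is the count of reads; for the 6 genes the wild-type libraries lie between 0 and 15.5 and the knockout libraries between 238 and 306.

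The 6 genes are a small share of the table, and some transcripts show the reverse. Of 9201 transcripts with 40 or more knockout reads, the 6 make up 0.0652%, and the median log2 ratio of read shares, knockout over wild type, was -0.02 over those transcripts. The reverse selection, at most 3 knockout reads and 40 or more in wild type, was met by 3 transcripts of 1491, 2784 and 3282 nt, or 0.0315% of the 9523 with 40 or more wild-type reads. These 3 had between 1 and 3 reads in each knockout library in sum, a number that the reverse selection itself keeps low.

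Just inside the limits lay PLAAT5, with 40 knockout reads, and TCEAL9, PI15 and SHISA2, with 3 wild-type reads each. Just outside, 11 transcripts had 40 or more knockout reads and 4 to 10 wild-type reads. The nearest were a transcript of 2405 nt with 4 wild-type and 136 knockout reads, a ratio of 37.5, and a transcript of 3067 nt with 4 and 53 reads, a ratio of 14.6. Another 8 transcripts had at most 3 wild-type reads and 20 to 39 knockout reads, among them one of 6163 nt with 0 and 21. A ratio over 8 was reached by 17 transcripts with 40 or more knockout reads, counting at least 3 wild-type reads for each. When each library was scaled to the depth of the shallowest, with the limits scaled too, 2 of the 6 genes, APOBEC3C and EPDR1, met them. The other 4 are those with 2 reads in wild type at 30 min replicate 2, a library whose reads gain weight in that scaling.

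**Figure D3:**
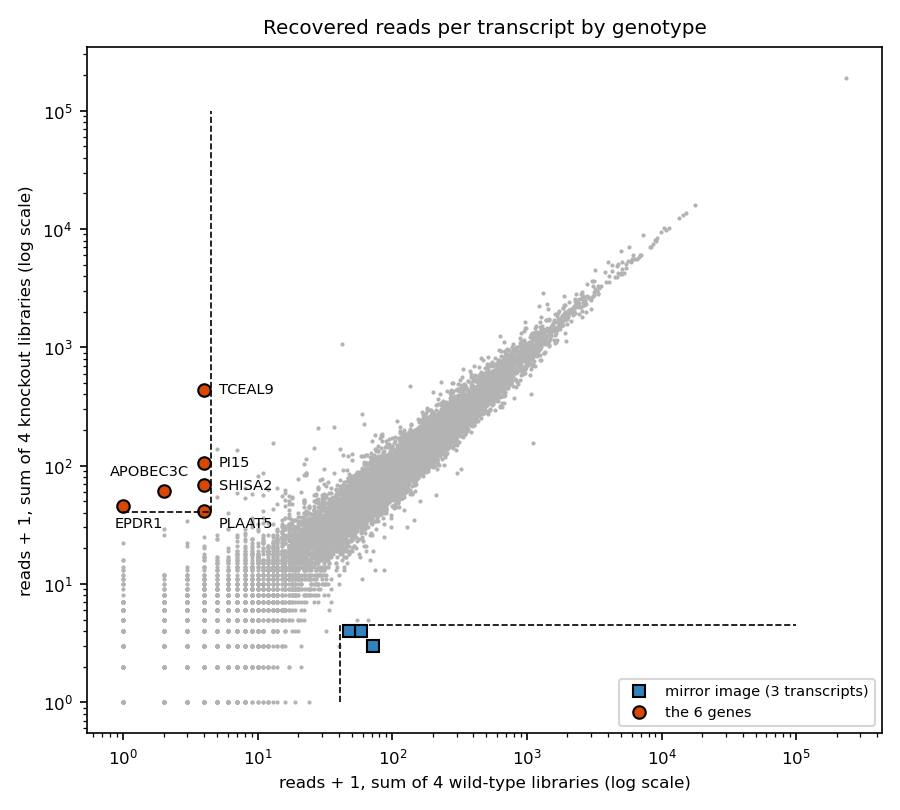
Reads per transcript summed over the 4 wild-type libraries (horizontal) and the 4 knockout libraries (vertical), each plus 1, on log scales, for all 19580 transcripts in grey. Dashed lines mark the limits of the selection and of its reverse; the 6 genes, in orange, lie at the upper left with 40 to 436 knockout reads, and the 3 reverse transcripts, in blue, at the lower right.

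By the profile over all 8 libraries, the transcript most like each gene was sought as the one with the smallest Euclidean distance between log2(RPKM + 1) values. For APOBEC3C this was SHISA2, at a distance of 1.59. For SHISA2 it was an unnamed transcript of 6326 nt with 7 wild-type and 64 knockout reads, at 1.52. For PLAAT5 and EPDR1 it was the same unnamed transcript of 2405 nt, at 1.89 and 3.71. PI15 lay 2.11 from a transcript of 2591 nt with 12 wild-type and 155 knockout reads. TCEAL9 had no close match, its nearest being a transcript of 6829 nt at 4.30, with 41 and 1068 reads.

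Recovery within the knockout was not the contrast that chose the genes, but it is not free of the choice. The selection sums the reads of both times, and the libraries at 0 min supply 72.1% of all knockout reads, so a gene high at 0 min reaches 40 reads more easily. None of the 6 passed the test (limma-trend on log2(RPKM + 1), Benjamini-Hochberg over the 11920 transcripts whose mean RPKM was at least 1, threshold 0.05), where 1.97% of all tested transcripts did. At an unadjusted p below 0.05 there were likewise 0 of the 6, against 18.4% of all tested transcripts. Of the 6, 3 had a positive and 3 a negative change. The median log2 change was -0.11 over the 6 and -0.12 over all tested transcripts. With 2 libraries a group, a change that misses the threshold does not show that levels stayed the same.

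EPDR1 had the largest fitted change of the 6, -1.99 on the log2 scale (SE 1.25, limma adjusted p = 0.436), and it rests on the library listed at 0. In pooled reads, 12 at 30 min and 33 at 0 min, its ratio of read shares was 0.938 (exact 95% interval 0.441 to 1.86). Without knockout at 30 min replicate 1 its change was 0.70 (limma adjusted p = 0.475), and without replicate 2 it was -4.69 (limma adjusted p = 0.00301), a call made on a single library at 30 min that is assumed to vary like the other groups. PI15 differed by -0.99 on the log2 scale (SE 0.57; adjusted p = 0.392 by limma), from 30.3 to 14.9 RPKM on average. Its read share was 2.13 times lower at 30 min, 0.469 as a ratio (exact 95% interval 0.257 to 0.805). TCEAL9 went the other way, by 0.54 on the log2 scale (SE 0.61; adjusted p = 0.689 by limma), and its read share was 1.44 times higher (interval 1.17 to 1.75). The intervals of PI15 and TCEAL9 leave out 1, but they hold no spread between replicates. Limma voom, run on the whole reads, gave both genes an unadjusted p under 0.05, 0.0307 for PI15 and 0.0212 for TCEAL9, and adjusted p of 0.235 and 0.199.

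The remaining 3 genes, like TCEAL9 in the fit, changed by less than their SE. SHISA2 had a log2 change of 0.31 (SE 0.50) and APOBEC3C of 0.34 (SE 0.46), with limma adjusted p of 0.791 and 0.752. PLAAT5 differed by -0.54 (SE 0.68; adjusted p = 0.731 by limma), with 31 reads at 0 min and 9 at 30 min. The intervals of their ratios of read shares at 30 over 0 min all held 1, from 0.668 to 2.01 for SHISA2, from 0.776 to 2.42 for APOBEC3C and from 0.314 to 1.61 for PLAAT5. The signs for APOBEC3C and PLAAT5 turned when 1 knockout library at 30 min was left out.

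**Figure D4:**
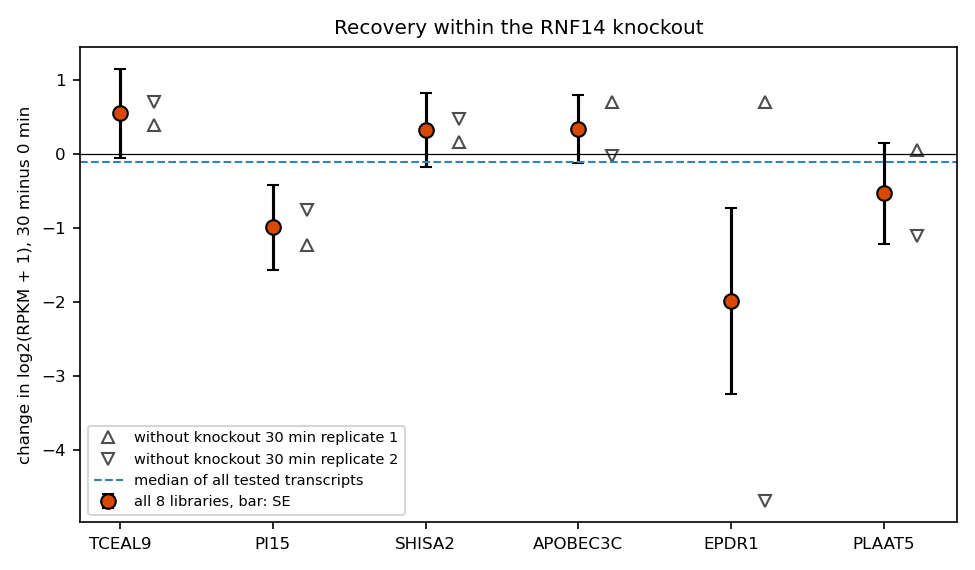
Change of each of the 6 genes from 0 to 30 min within the RNF14 knockout, on the log2(RPKM + 1) scale, as fitted over all 8 libraries with its SE (filled circles) and with either knockout library at 30 min left out (triangles). The dashed line is the median of all tested transcripts, -0.12; EPDR1 runs from -4.69 to 0.70 depending on the library left out.

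The selection used the genotype contrasts, so nothing is read from the same fit for them. Of all tested transcripts, 0.134% were called higher in the knockout at 0 min and 0.0839% at 30 min. Calls of the 6 are not given, because the values that chose them also enter this fit. The median log2 differences of the 6 were 3.94 at 0 min and 2.86 at 30 min. The selection sums both times and nearly fixes their positive sign.

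The 6 genes lie on 6 different chromosomes, so no single stretch of the genome holds them (RefSeq, GRCh38.p14, the files naming hg38). TCEAL9 lies at chrX:103356506-103358462, between the related genes TCEAL7 and BEX3. APOBEC3C lies at chr22:39014257-39020352 between its paralogues APOBEC3B and APOBEC3D, the latter beginning 775 nt after it. PLAAT5 lies at chr11:63461404-63491167 between SLC22A9 and LGALS12, SHISA2 at chr13:26044597-26052016 between ATP8A2 and RNF6, and EPDR1 at chr7:37920640-37951936 between SFRP4 and STARD3NL. PI15 lies at chr8:74824534-74855029 between GDAP1 and CRISPLD1, another CAP gene. These neighbours are the nearest protein-coding genes by start position, and their footprints were not analysed here. The transcripts counted were 638 to 3845 nt long, with a median of 1289.5 nt, against 2383.5 nt for all transcripts and 2798 nt for those with 40 or more knockout reads.

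To show the sequence at which their transcripts begin, the promoter windows held by the RefSeq table are printed for the members it lists: 4 windows for 3 of the 6 genes, each running from 250 bases before to 50 bases after an annotated start. They are written 5′ to 3′ on the strand of the gene, with every CG pair, the unit of CpG methylation, in capitals. EPDR1 has an upstream and a downstream window, and the counted transcript, ENST00000423717.1, was not matched to either.

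TCEAL9 promoter, chrX:103356256-103356555, plus strand: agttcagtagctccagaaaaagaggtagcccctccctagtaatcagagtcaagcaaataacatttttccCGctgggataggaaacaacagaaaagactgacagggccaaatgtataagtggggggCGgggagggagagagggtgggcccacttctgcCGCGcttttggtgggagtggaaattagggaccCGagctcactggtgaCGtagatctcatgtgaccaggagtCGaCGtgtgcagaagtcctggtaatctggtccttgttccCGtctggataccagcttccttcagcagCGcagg

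SHISA2 promoter, chr13:26051967-26052266, minus strand: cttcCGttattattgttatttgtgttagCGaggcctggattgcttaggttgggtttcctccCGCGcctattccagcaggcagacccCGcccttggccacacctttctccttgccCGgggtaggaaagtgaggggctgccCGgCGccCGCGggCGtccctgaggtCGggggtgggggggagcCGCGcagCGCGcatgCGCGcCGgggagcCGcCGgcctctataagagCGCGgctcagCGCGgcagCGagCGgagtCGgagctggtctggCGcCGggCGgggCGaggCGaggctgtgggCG

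EPDR1 upstream promoter, chr7:37920390-37920689, plus strand: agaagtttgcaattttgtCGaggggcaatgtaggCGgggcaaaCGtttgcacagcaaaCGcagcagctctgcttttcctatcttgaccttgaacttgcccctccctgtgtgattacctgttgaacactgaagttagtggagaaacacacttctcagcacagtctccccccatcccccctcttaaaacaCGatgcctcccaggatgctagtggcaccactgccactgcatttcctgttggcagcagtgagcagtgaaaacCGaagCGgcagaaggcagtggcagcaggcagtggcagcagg

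EPDR1 downstream promoter, chr7:37921069-37921368, plus strand: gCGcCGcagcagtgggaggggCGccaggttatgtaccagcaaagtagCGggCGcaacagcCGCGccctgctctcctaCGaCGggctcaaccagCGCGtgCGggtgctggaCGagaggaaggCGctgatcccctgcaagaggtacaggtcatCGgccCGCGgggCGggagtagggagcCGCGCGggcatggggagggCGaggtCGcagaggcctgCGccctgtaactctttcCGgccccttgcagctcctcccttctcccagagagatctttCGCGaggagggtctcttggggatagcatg

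The windows differed widely in their CG pairs. The SHISA2 window held 34, a number that 15.6% of all 35116 windows in the table reach, and was 69.7% G and C. The TCEAL9 window held 10 and the upstream EPDR1 window 7, both below the median of 14, while the downstream EPDR1 window held 27. The motif GGGCGG, counted on both strands and overlapping a CG pair by its own letters, occurred 2 times in the SHISA2 window, 1 time each in the TCEAL9 and downstream EPDR1 windows, and 0 times in the upstream EPDR1 window; 45.0% of all windows hold it. TATAA, counted on both strands, occurred 1 time each in the SHISA2 and TCEAL9 windows and 0 times in those of EPDR1, and 20.4% of all windows hold it. These are matches of letters and not measured binding or methylation.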

How the data were processed

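Ribosome footprints of 8 libraries were analysed. Per the labels' protocols, lysates made with cycloheximide were digested with RNase I, and footprints were size-selected and ligated to a linker. Cutadapt, STAR 2.7.10a and the hg38 build stand in the submitters' processing notes, without their settings. The table names the counted transcripts; the region counted and how a gene's transcript was chosen are not stated in the sources. RPKM values were deposited by the authors, scaled to transcript length and library total. RPKM times length gave whole reads, within 0.05, for 100% of values above 0. The column of knockout at 30 min replicate 1 has an unexplained suffix and was matched by genotype, time and replicate.

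All 8 libraries entered 1 limma-trend fit of 4 group means (limma 3.58.1, R 4.3.3) on log2(RPKM + 1), for transcripts whose mean RPKM reached 1, with 4 residual degrees of freedom, two-sided, with Benjamini-Hochberg adjustment. Fold changes on this scale understate the change of low genes. The fit was tested on simulated data. Ratios of read shares carry exact 95% binomial (Clopper-Pearson) intervals, and a group at 0 is given a floor of 3 reads. Alternatives were other pseudocounts, filters and scalings, a replicate block, no trend, only the groups compared, limma voom on recovered reads, leaving out each library (for the ratios, chosen after seeing the data), and other limits of the selection.

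The members, lists and tests were chosen with earlier results of these data known. The genes named are the 6, transcripts near the limits of the selection, the nearest profiles and the neighbouring genes. The gene table used here holds 0 Ensembl IDs, so symbols of the 6 come with the selection, and 15 lists of related genes and markers and the check of RNF14 were not run. Python 3.11.15, pandas 2.3.3, scipy 1.17.1 and matplotlib 3.10.9 were used.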

Additional observations from a re-analysis of the deposited data

How the results depend on the processing

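The recovery of the 6 genes within the knockout was not called under any of the alternatives that keep 2 libraries in each group. With each library left out in turn, the log2 change ran from 0.39 to 0.70 for TCEAL9, from -1.23 to -0.76 for PI15, from 0.03 to 0.60 for SHISA2, from -0.03 to 0.70 for APOBEC3C, from -4.69 to 0.70 for EPDR1 and from -1.12 to 0.04 for PLAAT5. The sign turned without knockout at 30 min replicate 1 for EPDR1 (0.70) and PLAAT5 (0.044) and without replicate 2 for APOBEC3C (-0.034). With a mean RPKM of 5 or more, SHISA2 and APOBEC3C could not be tested.

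The background count of 235 transcripts in knockout recovery became 43 with no filter, 571 with TPM (88 up, 483 down) and 73 with median centring (44 up, 29 down). After quantile normalization it was 147 (86 up, 61 down). Without a trend it was 0, where 1914 had an unadjusted limma p below 0.05. It became 401 with voom and 103 with the knockout libraries alone. It was 77 up and 158 down as reported, and ran from 22 to 528 with 1 library left out. With the replicate block it was 226, and no call of the 6 changed. The deviations of same-numbered libraries correlated between -0.08 and 0.07, which shows no pairing. Counting error at these depths can hide a pairing, so whether the numbers pair the samples stays undecided. The 20 transcripts called between genotypes at 0 min became 10 with a pseudocount of 0.1, 38 with no filter, 3 without a trend, 829 with voom and 64 with the libraries at 0 min alone, and 3 to 40 with 1 library left out. The 15 at 30 min became 2 with no filter, 28 without a trend and 6 with the libraries at 30 min alone, and 8 to 126 with 1 library left out.

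The genotype difference of all 6 genes was positive at both times under every setting except 1, in which EPDR1 at 30 min was compared without knockout replicate 2 and both groups were at 0. The selection nearly fixes this sign. The size of the difference moved with the pseudocount, with voom and with single libraries. With 1 library left out, the log2 difference at 30 min ran from 5.37 to 7.62 for TCEAL9, from 2.07 to 3.97 for PI15, from 1.12 to 3.23 for PLAAT5 and from 0 to 5.39 for EPDR1. With voom the difference at 0 min was 4.58 for SHISA2 and 4.43 for APOBEC3C, against 2.53 and 2.78. Without wild type at 0 min replicate 1, APOBEC3C had no wild-type read, and its ratio of read shares was at least 15.7.

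The number of transcripts meeting the selection was 1, EPDR1, with no wild-type read allowed, 14 with 20 or more knockout reads, 2, TCEAL9 and PI15, with 80 or more, and 2 after scaling to the shallowest library. It ran from 2 to 9 with 1 library left out; without knockout at 0 min replicate 1 TCEAL9 and PI15 were left. The reverse selection gave 0 with no knockout read allowed, 5 with up to 5, 8 with 20 or more wild-type reads and 0 with 80 or more, and 2 to 7 with 1 library left out, 7 without knockout at 0 min replicate 1 and 5 without knockout at 30 min replicate 2. With fewer reads summed, the same limits are stricter on the high side and looser on the low side.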
